A study of Mus musculus with 15 samples.

Results

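The 5 genes described here are Zfta, Lmx1b, L1cam, Ccnd1 and Cdkn2a, a set associated with ZFTA-RELA ependymoma, out of 24421 genes in the deposited tables. They were taken by name, with earlier results of these data known, so their counts beside the shares of all genes are a description only. Zfta appears in the tables under its older symbol, 2700081O15Rik. The study profiled mouse brain tumour tissue by poly(A) RNA-seq in 5 groups of 3 libraries. The groups are EPN Sox9-GOF and EPN control, then HGG labelled Sox9-LOF, HGG Sox9-GOF and HGG control, where EPN and HGG are the labels' names of the tumour models, and GOF and LOF stand with the gene Sox9. The labels give no driver allele, promoter, strain, age or sex, and do not say how Sox9 was altered or whether libraries came from separate mice. The p-values therefore measure the spread between these libraries, which may be in part technical.

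ZFTA-RELA is the gene fusion that defines most human supratentorial ependymomas. It joins the zinc finger protein ZFTA, formerly C11orf95, to RELA, the p65 subunit of the NF-kB transcription factor, and the fusion protein gathers in the nucleus and activates transcription. In patients, strong staining for the adhesion molecule L1CAM and for cyclin D1, the product of CCND1, is used as a surrogate of the fusion, and loss of CDKN2A has been linked to a poorer course. LMX1B encodes a LIM homeodomain transcription factor best known from the midbrain-hindbrain boundary and from dopaminergic and serotonergic neurons.

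The libraries held 4665428 to 14119140 reads, with a median of 10578708. Sox9 was measured at 2055, 1834 and 2692 rescaled counts in EPN Sox9-GOF tumours, against 1045, 1040 and 1189 in EPN controls. In HGG it was at 739, 579 and 395 in the libraries labelled Sox9-LOF and at 1276, 1537 and 1391 in Sox9-GOF tumours, against 218, 285 and 310 in HGG controls. Sox9 transcript was thus no lower in any library labelled Sox9-LOF than in the controls. Because the labels do not say how Sox9 was altered, its RNA level cannot tell whether its function was lost. Rescaled counts are recovered reads divided by a size factor set over all 15 libraries, so they compare libraries but do not correct for gene length. The 6 ependymal and motile cilia markers summed to only 80.7 to 204 rescaled counts in EPN libraries, against 149 to 513 in HGG libraries. The markers that define ependymal cells were therefore no higher in EPN. Over all tumours 4 of 4 pericyte and 5 of 5 endothelial markers were higher in EPN than in HGG by limma, against 26.2% of all genes tested. Lower in EPN were 4 of 5 oligodendrocyte precursor and 4 of 5 mature oligodendrocyte markers, against 27.1% of all genes tested. The part of these markers in the results was not tested. Choroid plexus markers reached 24356 in 1 library labelled HGG Sox9-LOF, 9675 in 1 HGG Sox9-GOF library and 108980 in 1 HGG control, against at most 426 in the other 12 libraries. In bulk tissue, fewer cells of a type and less RNA per cell cannot be told apart.

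Over all tumours, Zfta and Lmx1b were higher and L1cam was lower in EPN than in HGG, while Ccnd1 and Cdkn2a did not pass the test. In this comparison of the 6 EPN with the 9 HGG libraries, 3 of the 5 genes passed limma's adjusted p of 0.05, against a background of 53.2% of 15109 genes tested (26.2% higher and 27.1% lower in EPN). The same 3 genes had EPN and HGG libraries that did not overlap, against 17.5% of genes tested. Among controls alone, 3 of 5 passed, Zfta and Lmx1b higher and L1cam lower in EPN, against 15.3% of 15105 genes. Between the Sox9-GOF tumours of both models 4 of 5 passed, the same 3 and Cdkn2a, against 40.7% of 14964 genes. Groups did not overlap for 3 of 5 genes between controls, against 40.3% of all genes, and for 5 of 5 between Sox9-GOF tumours, against 55.0%. Lmx1b enters each of these counts through its level in EPN alone. Within a model, none of the members tested passed in any Sox9 comparison by limma, and neither did any other gene (0.00% in each).

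**Figure D1:**
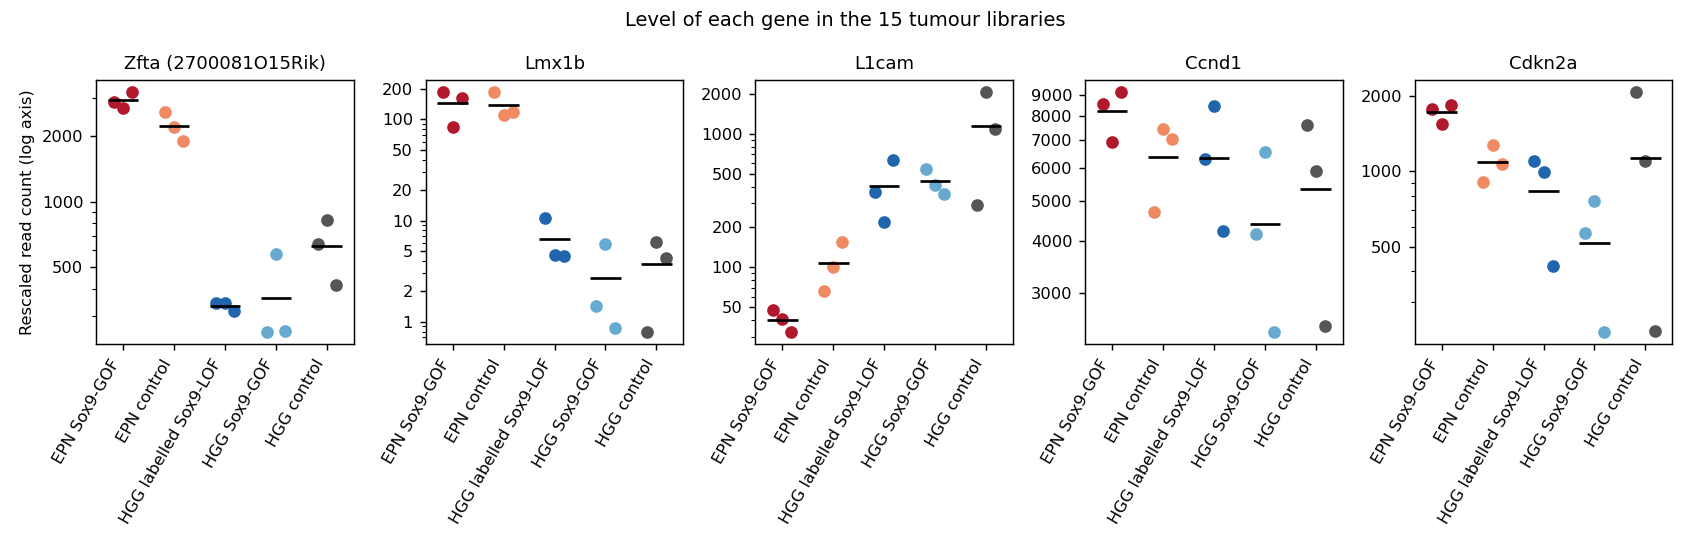
Rescaled read counts (log axis) of the 5 genes in each of the 15 libraries, with a bar at the mean of each group of 3. The 6 EPN libraries lie above the 9 HGG libraries for Zfta and Lmx1b and below them for L1cam, and the models overlap for Ccnd1 and Cdkn2a.

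Corrected for exon length, the order of the genes by group mean differed between models. In EPN Sox9-GOF tumours, Ccnd1 stood at 1744 ± 245 rescaled counts per kilobase of exon, Cdkn2a at 1474 ± 131, Zfta at 418 ± 35.9, Lmx1b at 29.4 ± 11.0 and L1cam at 5.50 ± 1.02 (SD, n = 3). In HGG controls, Ccnd1 stood at 1134 ± 554 per kilobase, Cdkn2a at 970 ± 792, L1cam at 156 ± 121, Zfta at 89.1 ± 29.3 and Lmx1b at 0.765 ± 0.557 (SD, n = 3). L1cam was the lowest of the 5 in EPN Sox9-GOF tumours, and Lmx1b the lowest in HGG controls. Ccnd1 and Cdkn2a were the highest in both groups, and the SDs of this pair overlap in each. EPN controls had the order of EPN Sox9-GOF tumours, with Zfta at 319, Lmx1b at 28.3 and L1cam at 14.6 per kilobase. HGG Sox9-GOF tumours had that of HGG controls, with L1cam at 59.8, Zfta at 51.4 and Lmx1b at 0.559. In HGG the SDs of L1cam and Zfta overlap, and their order changed between libraries. In HGG control 1, 2 and 3, Zfta was at 90.85, 117 and 58.9 and L1cam at 39.5, 281 and 147.

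Zfta, the zinc finger partner in the fusion, lies on chromosome 19 from 7417625 to 7425904 on the plus strand (GRCm38). Its promoter window, 250 bases before to 50 after the RefSeq start, is shown because Zfta separates both models completely. It spans chr19:7417375-7417674 (GRCm38.p6, plus strand, RefSeq), and capitals mark matches to the GC-rich hexamer GGGGCC on either strand.
Zfta: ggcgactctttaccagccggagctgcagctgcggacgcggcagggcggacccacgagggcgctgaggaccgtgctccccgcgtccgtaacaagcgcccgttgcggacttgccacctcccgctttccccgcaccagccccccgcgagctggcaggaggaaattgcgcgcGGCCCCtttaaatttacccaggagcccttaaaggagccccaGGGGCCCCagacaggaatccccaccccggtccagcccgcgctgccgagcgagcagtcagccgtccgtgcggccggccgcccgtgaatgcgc
The window holds 3 such matches, of which a pair overlaps, and none to the kappaB consensus that RELA binds. Of 32851 mouse promoter windows of this length, 25% hold GGGGCC and 8.46% a kappaB match. The Zfta window is 70.7% G or C, against a median of 52.7%.

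Zfta was measured at 2886, 2713 and 3210 rescaled counts in EPN Sox9-GOF tumours and at 2604, 2204 and 1912 in EPN controls. In HGG it was at 343, 344 and 316 in the libraries labelled Sox9-LOF, at 253, 575 and 256 in Sox9-GOF tumours and at 639, 826 and 414 in controls. Every EPN library lay above every HGG library. Group means were 2936 ± 252 in EPN Sox9-GOF, 2240 ± 347 in EPN control, 334 ± 15.7 in HGG labelled Sox9-LOF, 361 ± 185 in HGG Sox9-GOF and 626 ± 206 in HGG control tumours (SD, n = 3 each), and the HGG Sox9-GOF libraries overlap both other HGG groups. Of the 15109 genes tested, 96.3% had a lower mean than Zfta in EPN Sox9-GOF tumours, and 73.6% in HGG controls.

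Over all libraries the difference was 6.26-fold (log2 fold change 2.65, SE 0.19, limma adjusted p = 3.19e-07), and the exact permutation test of 6 against 9 libraries gave p = 0.0004, the smallest it can give. Between the controls Zfta was 3.68-fold higher in EPN (log2 1.88, SE 0.29, limma adjusted p = 0.0109), and between Sox9-GOF tumours 8.75-fold higher (log2 3.13, SE 0.33, limma adjusted p = 0.00038). These contrasts share no library. The control contrast missed the threshold without EPN control 1 or EPN control 2, at limma adjusted p = 0.0549 and 0.0612 and nearly the same fold (log2 1.77 and 1.89). Counts per gene cannot tell reads of the mouse Zfta gene from those of an introduced fusion transcript, and the labels do not say whether the EPN tumours carry one. Rtn3, whose exons share 4 bases with Zfta on the opposite strand, went the other way (log2 -1.32, SE 0.18, EPN over HGG, limma adjusted p = 4.57e-05).

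Rela, the other fusion partner, differed less between models. It was at 1016 ± 330 rescaled counts in EPN Sox9-GOF tumours and 875 ± 174 in EPN controls, against 439 ± 121 in the libraries labelled HGG Sox9-LOF, 321 ± 20.2 in HGG Sox9-GOF tumours and 762 ± 150 in HGG controls (SD, n = 3 each). The difference over all libraries was 1.96-fold (log2 0.97, SE 0.17, limma adjusted p = 0.000397), with overlapping ranges. Between the controls it was 1.15-fold and did not pass (log2 0.20, SE 0.23, limma adjusted p = 0.578).

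Lmx1b, a LIM homeodomain factor, lies on chromosome 2 from 33560965 to 33640511 on the minus strand. Its promoter window is shown because it holds both motifs. It spans chr2:33641049-33641348 (GRCm38.p6, minus strand, RefSeq), and capitals mark GGGGCC and, directly after it, the kappaB match.
Lmx1b: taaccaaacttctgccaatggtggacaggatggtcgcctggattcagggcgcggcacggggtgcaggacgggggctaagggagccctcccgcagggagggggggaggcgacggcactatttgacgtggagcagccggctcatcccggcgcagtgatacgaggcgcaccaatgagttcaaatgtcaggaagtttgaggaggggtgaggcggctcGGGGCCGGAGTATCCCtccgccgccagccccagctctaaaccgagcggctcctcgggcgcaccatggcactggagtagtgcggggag
None of the 6 windows of the 4 genes with an entry (Zfta, Lmx1b, L1cam and Cdkn2a) holds ACAAT, the core of the motif that SOX proteins bind, on either strand, while 31% of all promoter windows do. Such matches describe these letters only.

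Lmx1b was measured at 187, 83.7 and 160 rescaled counts in EPN Sox9-GOF tumours and at 187, 110 and 117 in EPN controls. In HGG it was at 10.5, 4.54 and 4.45 in the libraries labelled Sox9-LOF, at 1.44, 5.87 and 0.877 in Sox9-GOF tumours and at 0.794, 6.15 and 4.26 in controls. Lmx1b was thus near the detection limit in all HGG groups, where 38 reads over 9 libraries carried it, against 872 reads over the 6 EPN libraries. It passed the filter on low values only through the EPN libraries, so a difference between models was bound to appear. That difference was 30.3-fold (log2 4.92, SE 0.41, limma adjusted p = 7.51e-07) over all libraries, with an exact permutation p of 0.0004. Between controls it was log2 5.05 (SE 0.63, limma adjusted p = 0.00665) and between Sox9-GOF tumours log2 5.44 (SE 0.62, limma adjusted p = 0.000522). Both EPN groups were nearly level, with a 95% confidence interval of -0.81 to 0.94 for the log2 change in EPN Sox9-GOF tumours over EPN controls.

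L1cam, the neural adhesion molecule, lies on chromosome X from 73853778 to 73896105 on the minus strand. Its first promoter window is shown because L1cam separates the models in the opposite direction from Zfta and Lmx1b. The window spans chrX:73880741-73881040 (GRCm38.p6, minus strand, RefSeq), and capitals mark its only GGGGCC match. A second RefSeq window that overlaps it also holds 1 match.
L1cam: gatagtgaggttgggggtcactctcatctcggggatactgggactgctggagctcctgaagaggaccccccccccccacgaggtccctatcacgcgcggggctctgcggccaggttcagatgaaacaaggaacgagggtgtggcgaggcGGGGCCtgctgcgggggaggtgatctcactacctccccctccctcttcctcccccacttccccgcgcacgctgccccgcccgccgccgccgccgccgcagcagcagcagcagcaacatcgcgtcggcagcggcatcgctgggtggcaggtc

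L1cam was measured at 47.6, 41.0 and 32.6 rescaled counts in EPN Sox9-GOF tumours and at 66.5, 100.3 and 154 in EPN controls. In HGG it was at 366, 217 and 631 in the libraries labelled Sox9-LOF, at 547, 416 and 355 in Sox9-GOF tumours and at 290, 2065 and 1079 in controls. Every EPN library lay below every HGG library. The staining used in patients is of protein and serves as a surrogate of the fusion, so this RNA contrast of mouse models does not bear on it directly. Group means, from low to high, were EPN Sox9-GOF (40.4 ± 7.49), EPN control (107 ± 44.1), HGG labelled Sox9-LOF (405 ± 210), HGG Sox9-GOF (439 ± 98.0) and HGG control (1145 ± 889; SD, n = 3 each). The HGG groups overlap one another.

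L1cam was 8.01-fold lower in EPN over all libraries (log2 -3.00, SE 0.38, limma adjusted p = 2.59e-05), with an exact permutation p of 0.0004. Between the Sox9-GOF tumours it was 10.6-fold lower in EPN (log2 -3.40, SE 0.28, limma adjusted p = 0.000167). Between the controls it was 8.49-fold lower (log2 -3.09, SE 0.72, limma adjusted p = 0.0371), and this call was lost on leaving out any single control library other than HGG control 1, at limma adjusted p from 0.0636 without HGG control 2 to 0.13 without EPN control 2. Arhgap4, which shares 100 exon bases with L1cam on the same strand, did not pass between the models (log2 0.22, SE 0.27, limma adjusted p = 0.513).

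Neuron markers were lower in EPN than in HGG, as L1cam was. The summed level of 7 of them was 1965 to 2897 rescaled counts in EPN Sox9-GOF tumours and 4700 to 10158 in EPN controls, against 15447 to 33261 in the libraries labelled HGG Sox9-LOF, 18602 to 25552 in HGG Sox9-GOF tumours and 6256 to 31815 in HGG controls. All 7 markers were detected in every library, and 7 of 7 were lower in EPN than in HGG by limma, against 27.1% of all genes tested. Between controls, where L1cam was also lower, 1 of 7 passed, with a median log2 fold change of -0.92. Within EPN, the 6 libraries stood in the same order for L1cam and for the marker sum. Within HGG the markers and L1cam had opposite signs: over HGG controls the markers had a median log2 change of 0.71 in the libraries labelled Sox9-LOF, with 7 of 7 above 0, and of 0.97 in Sox9-GOF tumours, with 6 of 7 above 0, while L1cam was at -1.23 and -0.98, and none of these passed. HGG control 2 had the highest L1cam of all libraries (2065) at a marker sum of 10616, while HGG labelled Sox9-LOF 1 had the highest marker sum (33261) at an L1cam of 366. Within EPN, L1cam was also lowest where Zfta was highest, with a Pearson r of -0.98 over 6 libraries (Spearman's rho -0.94, r -0.91 without the 2 farthest) against 0.41 over the 9 HGG libraries, a description of libraries that share scaling and, in EPN, 2 groups. The part of neuronal RNA in the L1cam difference was not tested. L1cam is X-linked, and Xist stood at 0, 0.872 and 0 rescaled counts in EPN Sox9-GOF tumours, 7.39, 5110 and 4666 in EPN controls, 1.17, 4345 and 0 in the libraries labelled HGG Sox9-LOF, 4508, 9.54 and 8947 in HGG Sox9-GOF tumours and 4920, 4617 and 2797 in HGG controls. Ddx3y, a Y-linked gene, stood at 1069, 443 and 1240 in EPN Sox9-GOF tumours and 873, 3.38 and 0 in EPN controls. In HGG it stood at 794, 1.14 and 1021 in the libraries labelled Sox9-LOF and 0.718, 527 and 0 in Sox9-GOF tumours. It was at 0 in each HGG control. By Xist and Ddx3y, sex was not balanced between groups. The part of sex in the result was likewise not tested.

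**Figure D2:**
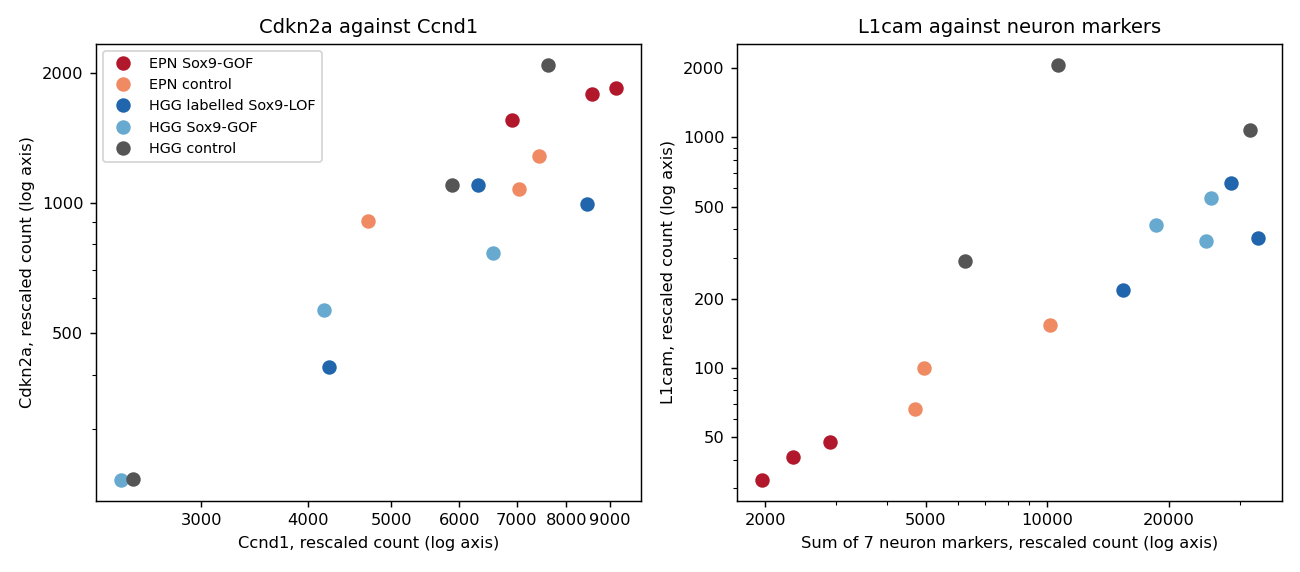
Left, Cdkn2a against Ccnd1, and right, L1cam against the sum of 7 neuron markers, as rescaled counts (log axes), 1 point per library. Cdkn2a and Ccnd1 are high or low in the same libraries of both models, and the EPN libraries hold the lowest L1cam, from 32.6 to 154, at marker sums of 1965 to 10158.

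Ccnd1 encodes cyclin D1, which activates CDK4 and CDK6 to release the cell cycle from RB, and lies on chromosome 7 from 144929931 to 144939925 on the minus strand. It was measured at 8565, 6924 and 9155 rescaled counts in EPN Sox9-GOF tumours and at 4691, 7439 and 7046 in EPN controls. In HGG it was at 6318, 8452 and 4224 in the libraries labelled Sox9-LOF, at 4170, 6570 and 2417 in Sox9-GOF tumours and at 7627, 5888 and 2501 in controls. Ccnd1 was abundant in every group, with 98.4% to 99.2% of genes tested below its group mean, and all groups overlapped except for the Sox9-GOF tumours of both models.

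Between those Sox9-GOF tumours Ccnd1 was 2.02-fold higher in EPN (log2 1.01, SE 0.36), which missed the threshold (limma adjusted p = 0.0588). It passed by DESeq2 (adjusted p = 0.0421, as did 45.6% of genes) and by limma without HGG Sox9-GOF 2 (adjusted p = 0.0182). Over all libraries the log2 difference was 0.54 (SE 0.28, 95% confidence interval -0.06 to 1.14, limma adjusted p = 0.119). Of the Ccnd1 exon bases, 23.4% are shared with Oraov1 (now LTO1) on the opposite strand, and reads of the pair may be mixed, because no source used here states how strand was treated in counting. Oraov1 moved by log2 0.43 (SE 0.15) in EPN over HGG, limma adjusted p = 0.0263.

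Cdkn2a encodes 2 cell cycle inhibitors from different starts, p16INK4a, which blocks CDK4 and CDK6, and p19ARF, which stabilises p53. It lies on chromosome 4 from 89274471 to 89294653 on the minus strand. Both RefSeq promoter windows are shown because counts per gene cannot say which start the reads came from. Window 1, at chr4:89282143-89282442, and window 2, farther upstream at chr4:89294570-89294869, are on the minus strand (GRCm38.p6, RefSeq), and capitals mark the only match to TTTCCCGC or its 3 other E2F forms, TTTCGCGC, TTTGCCGC and TTTGGCGC, on either strand.
Cdkn2a window 1: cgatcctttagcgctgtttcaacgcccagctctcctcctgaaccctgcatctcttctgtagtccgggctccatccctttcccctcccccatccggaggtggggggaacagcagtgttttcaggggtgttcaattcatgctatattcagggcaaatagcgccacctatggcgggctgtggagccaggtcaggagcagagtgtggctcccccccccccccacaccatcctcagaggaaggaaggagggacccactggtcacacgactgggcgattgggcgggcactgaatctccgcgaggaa
Cdkn2a window 2: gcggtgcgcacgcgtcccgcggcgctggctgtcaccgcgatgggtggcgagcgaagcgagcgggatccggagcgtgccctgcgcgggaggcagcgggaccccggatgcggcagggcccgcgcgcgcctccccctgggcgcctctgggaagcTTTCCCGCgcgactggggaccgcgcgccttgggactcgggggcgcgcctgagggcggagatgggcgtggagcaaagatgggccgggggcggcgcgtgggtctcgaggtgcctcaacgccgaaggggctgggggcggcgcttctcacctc
E2F forms, the sites through which RB acts, occur in 2.26% of all promoter windows. Ccnd1 is not among the promoters shown.

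Cdkn2a was measured at 1784, 1555 and 1846 rescaled counts in EPN Sox9-GOF tumours and at 908, 1280 and 1074 in EPN controls. In HGG it was at 1100.2, 991 and 417 in the libraries labelled Sox9-LOF, at 565, 765 and 228 in Sox9-GOF tumours and at 2085, 1097 and 229 in controls. The HGG controls alone spanned from 229 to 2085, a range that holds every other library except HGG Sox9-GOF 3, at 228, and no library lacked the transcript. Cdkn2a was 3.72-fold higher in the Sox9-GOF tumours of EPN than in those of HGG (log2 1.90, SE 0.41, limma adjusted p = 0.00845), without overlap. Over all libraries the log2 difference was 1.05 (SE 0.43, limma adjusted p = 0.0539, exact permutation p = 0.0368), which passed with TMM scaling, with a replicate block (adjusted p = 0.023) and without HGG Sox9-GOF 2 or HGG control 1 (limma adjusted p = 0.0421 and 0.011). It also passed without the 3 libraries with choroid plexus transcripts (limma adjusted p = 0.0259), a choice made after the data were seen. Between controls it was 0.42 by limma (SE 0.76, adjusted p = 0.738), -0.076 by DESeq2 and -0.080 by edgeR.

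**Figure D3:**
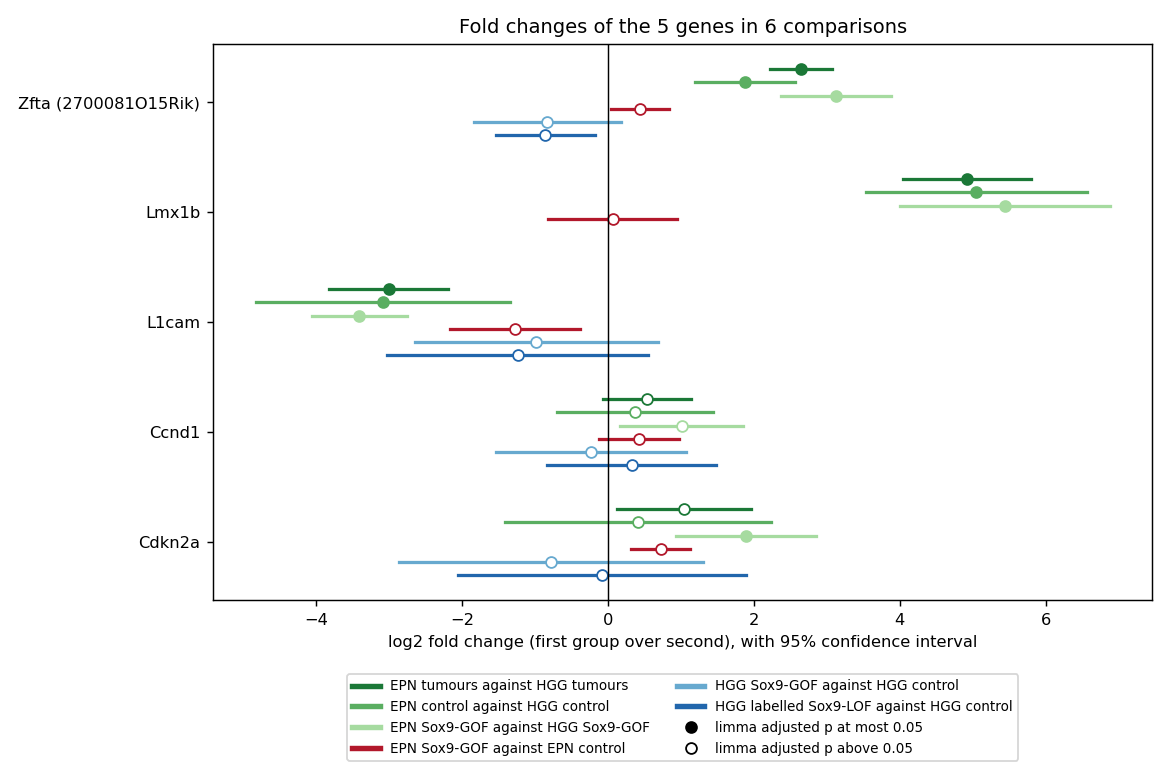
Log2 fold changes of the 5 genes in 6 comparisons, first group over second, with 95% confidence intervals from limma; filled points have a limma adjusted p of at most 0.05. Filled points are found only in the 3 EPN against HGG comparisons, and Lmx1b has no point in either HGG comparison because it failed the filter on low values there.

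Ccnd1 and Cdkn2a, an activator and an inhibitor of the same kinases, were high or low in the same libraries. Cdkn2a amounted to 9.17% to 27.3% of the Ccnd1 count in HGG libraries and to 15.2% to 22.5% in EPN libraries. Across libraries their log2 levels had a Pearson r of 0.93 over all 15 and 0.93 over the 9 of HGG. For deviations from group means in the 9 HGG libraries, r was 0.95 and Spearman's rho 0.92, and r was 0.89 without the 2 farthest libraries. These points share depth and scaling within a library and are given as a description. The next closest pair by deviations within HGG was Zfta and Ccnd1, at r = 0.76.

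In the wider set of 11 genes tied to ZFTA-RELA ependymoma, a list chosen with these data known, 10 were higher and 1 lower in EPN than in HGG, where 26.2% of all genes tested were higher and 27.1% lower. The set had a median log2 fold change of 1.20 against 0.02 over all genes tested. The lower gene was Fgfr3, at 385 rescaled counts on average in EPN libraries against 1173 in HGG libraries. Between controls alone 5 of the 11 were higher and 6, with Rela among them, did not pass, where 9.51% of all genes tested were higher. Igf2, a fetal growth factor, was at 60910 ± 28304 rescaled counts in EPN Sox9-GOF tumours and 46135 ± 17216 in EPN controls, against 520 ± 643 in the libraries labelled HGG Sox9-LOF, 378 ± 309 in HGG Sox9-GOF tumours and 1398 ± 2082 in HGG controls (SD, n = 3 each). Its log2 fold change over all tumours was 7.15 (SE 0.73, limma adjusted p = 4.61e-06). Ephb2, an ephrin receptor, rose by log2 3.23 (SE 0.25) and Loxl1, a lysyl oxidase of the elastic matrix, by log2 3.35 (SE 0.32). Nfkb1, the p105 and p50 subunit of NF-kB, rose by log2 1.20 (SE 0.12). Among the 12 NF-kB subunits and inhibitors, which include Rela, Nfkb1 and Nfkb2 again, 3 were higher, 0 lower and 9 did not pass, with a median of 0.23. That is 25% of the list called, below the 53.2% of all genes tested.

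**Figure D4:**
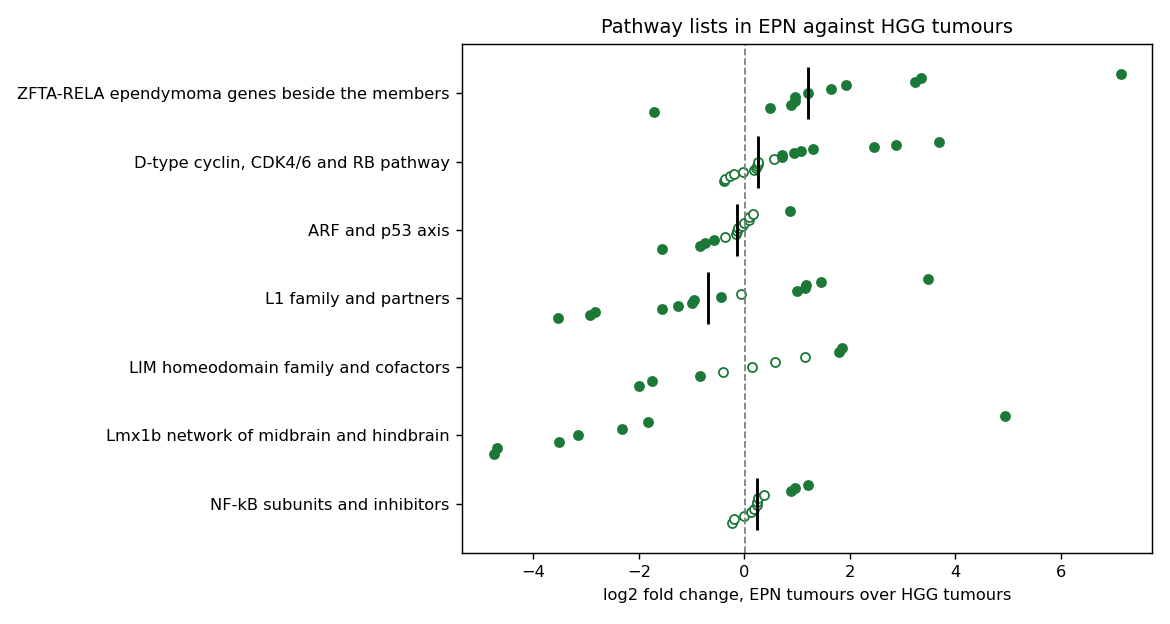
Log2 fold changes, EPN tumours over HGG tumours, of each gene in 7 lists around the 5 genes; filled points pass limma's adjusted p of 0.05, black bars are medians of lists whose genes were all tested and the dashed line is the median of all genes tested. The list of ZFTA-RELA ependymoma genes has a median of 1.20, while that of all genes is 0.02; most genes of the Lmx1b network are near 0 counts in 1 model and passed the filter on low values through the other alone.

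Around Ccnd1, 8 of 19 genes of the D-type cyclin, CDK4/6 and RB pathway were higher in EPN than in HGG, 1 was lower and 10 did not pass, with a median log2 fold change of 0.27. That is 47.4% of the list called, no more than the 53.2% of all genes tested. Ccnd3, cyclin D3, was at 6051 ± 966 rescaled counts in EPN Sox9-GOF tumours and 5017 ± 210 in EPN controls, against 950 ± 435, 988 ± 427 and 1305 ± 474 in HGG labelled Sox9-LOF, HGG Sox9-GOF and HGG control tumours (SD, n = 3 each). It rose by log2 2.45 (SE 0.25, limma adjusted p = 4.99e-06). Cdk6, a partner kinase of the D cyclins, rose by log2 2.89 (SE 0.30, limma adjusted p = 4.78e-06) at low levels, from 82.0 to 215 in EPN libraries against 8.20 to 33.0 in HGG libraries. The transcription factors E2f3 (log2 1.07, SE 0.17) and E2f1 (limma adjusted p = 0.000778) also rose. Around Cdkn2a, 1 of 14 genes of the ARF and p53 axis was higher, 4 were lower and 9 did not pass, with a median of -0.13, and 35.7% of the list called is again below the 53.2% of all genes. The p53 target Zmat3 fell by 0.85 on the log2 scale (SE 0.14) and Myc by 1.56 (SE 0.38), each with EPN and HGG ranges that overlapped. The p53 target Bbc3 went the other way, averaging 148 rescaled counts over EPN libraries against 88.0 over HGG libraries, also with overlapping ranges. Ccng1 averaged 996 against 944, Bax 605 against 679 and Cdkn1a 395 against 663. In all, 4 of the 14 had a log2 change above 0.

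Around L1cam, 5 of 14 L1 family members and partners were higher in EPN than in HGG, 8 were lower and 1 did not pass, against 26.2% of all genes tested higher and 27.1% lower, with a median log2 fold change of -0.70. The neuronal contactin Cntn1 fell by 3.53 (SE 0.21, limma adjusted p = 7.99e-08), Ank3, the ankyrin that anchors L1 family proteins at the axon initial segment, by 2.83 (SE 0.19), and Ncam1 by 2.93 (SE 0.28). In contrast Adam17, a protease that sheds L1CAM, rose by 1.15 on the log2 scale (SE 0.10). Cntn2, a binding partner of L1CAM, went against Cntn1, and between the Sox9-GOF tumours it was higher in EPN by log2 3.79 (SE 0.24, limma adjusted p = 9.47e-05). Beside this list, 7 of 7 neuron markers were lower in EPN, with a median of -2.53, and their part in it was not tested.

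Around Lmx1b, 7 of 12 genes of its midbrain and hindbrain network passed the filter on low values. Of these, 1 (Wnt1) passed through the EPN libraries alone and 5 (En1, En2, Th, Otx2 and Gbx2) through the HGG libraries alone, so their differences between models were bound to appear, as that of Lmx1b was. Wnt1, which Lmx1b maintains at the midbrain-hindbrain boundary, was at 7.21 to 35.8 rescaled counts in EPN Sox9-GOF tumours and 44.0 to 185 in EPN controls, against 0 to 2.63 in all HGG libraries. It rose by log2 4.94 (SE 0.49, limma adjusted p = 3.83e-06). The engrailed genes of the same boundary went the other way. En1 was at 0 to 1.56 in EPN libraries against 7.94 to 94.3 in HGG libraries, and En2 at 0 to 4.23 against 32.9 to 115. Nr4a2, a nuclear receptor of dopaminergic neurons, was the only gene of the network above the filter in both models, at 17.3 to 51.8 rescaled counts in EPN libraries against 45.2 to 725 in HGG libraries, and is named for that after its values were seen. Of the LIM homeodomain family and its cofactors, 9 of 17 were tested, each above the filter in both models; 2 were higher, 3 lower and 4 did not pass, a share called of 55.6%, near the 53.2% of all genes. Lhx2, a forebrain LIM homeodomain factor, rose, to 1021 and 846 rescaled counts on average in EPN Sox9-GOF and EPN control tumours against 226 to 356 in the HGG groups (limma adjusted p = 3.45e-05), and the LIM-only factor Lmo4 fell by 0.85 (SE 0.23).

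Between EPN Sox9-GOF tumours and EPN controls, none of the 5 genes passed limma's test across all genes, and Lmx1b differed least (log2 0.07, SE 0.37, limma adjusted p = 0.955). Cdkn2a was 1.65-fold higher in EPN Sox9-GOF tumours than in EPN controls (log2 0.72, SE 0.17, limma adjusted p = 0.16), and L1cam was 2.41-fold lower (log2 -1.27, SE 0.38, limma adjusted p = 0.191). Zfta was 1.36-fold higher (log2 0.44, SE 0.17, limma adjusted p = 0.275). For these 3 genes the groups did not overlap, against 22.0% of the 14591 genes tested, and 3 of 5 had an unadjusted limma p under 0.05, against 15.1%. The exact permutation p was 0.1 for each, the smallest that 3 against 3 libraries allow. Ccnd1 moved by log2 0.43 (SE 0.23, limma adjusted p = 0.455), with overlap. By limma and edgeR 0 of the 5 passed. By DESeq2 Cdkn2a (adjusted p = 0.0175) and L1cam (adjusted p = 0.0403) passed, which makes 2 of 5 against 5.77% of genes tested. Beside L1cam, the 7 neuron markers had a median log2 change of -1.81, the 6 astrocyte markers one of -1.75 and the 5 mature oligodendrocyte markers one of -2.01, all with 0 members above 0. The 5 lymphocyte markers went the other way, with a median of 1.55 and 5 of 5 above 0. No marker of these lists passed limma, as no gene did. By DESeq2, 5 of 7 neuron and 3 of 6 astrocyte markers were lower, against 4.94% of genes tested. DESeq2 called 0 of the mature oligodendrocyte and 0 of the lymphocyte markers. The part of all these markers in the L1cam difference was not tested. By the Xist and Ddx3y values given with L1cam, sex was not balanced between EPN Sox9-GOF tumours and EPN controls. Its part in these differences was not tested either.

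In HGG, both Sox9 comparisons use the same 3 control libraries, so their values are given side by side and not compared. All HGG controls had Xist and no Ddx3y reads, while both other HGG groups were mixed. Sex was thus not balanced, and its part was not tested. Zfta was 1.81-fold lower in the libraries labelled Sox9-LOF than in HGG controls (log2 -0.86, SE 0.28, limma adjusted p = 0.217), without overlap, as in 24.5% of 14861 genes tested. In HGG Sox9-GOF tumours it was 1.77-fold lower than in the controls (log2 -0.83, SE 0.42, limma adjusted p = 0.297), with overlap; 0 of the 4 genes tested were free of overlap there, against 30.5% of 15092 genes. HGG Sox9-GOF and HGG control libraries of the same number are called pairs here. Neither the labels nor the data establish a pairing, and the fold changes given are from unpaired fits. Zfta and Cdkn2a were each lower in the Sox9-GOF library of 3 of 3 pairs. For Cdkn2a pair 3 was nearly level, at 228 in the Sox9-GOF library against 229 in the control. L1cam and Ccnd1 were each lower in 2 of 3. The share of all genes lower in every pair was not counted, so these counts are a description only. With the pairs as a block neither Zfta (limma adjusted p = 0.138) nor Cdkn2a (adjusted p = 0.292) passed. L1cam was at log2 -1.23 (SE 0.75) in the libraries labelled Sox9-LOF and log2 -0.98 (SE 0.69) in Sox9-GOF tumours, each over HGG controls, with limma adjusted p = 0.439 and 0.449. Ccnd1 was at log2 0.33 (SE 0.49) in the libraries labelled Sox9-LOF and log2 -0.23 (SE 0.54) in Sox9-GOF tumours. Cdkn2a was at log2 -0.08 (SE 0.82) in the libraries labelled Sox9-LOF and log2 -0.78 (SE 0.87) in Sox9-GOF tumours. The sign for Ccnd1 was reversed without HGG control 3 for Sox9-LOF, and without HGG Sox9-GOF 3 or HGG control 1 for Sox9-GOF. That for Cdkn2a was reversed for Sox9-LOF without HGG control 1, HGG control 2 or the third library labelled Sox9-LOF, and for Sox9-GOF with the choroid plexus libraries left out together. Zfta and L1cam kept their signs in all alternatives run. None of the 4 genes tested passed limma, edgeR or DESeq2 in either comparison, and 1 (Zfta, labelled Sox9-LOF) had an unadjusted limma p under 0.05, against 17.3% and 22.7% of all genes. DESeq2 called 9.01% of all genes for the libraries labelled Sox9-LOF and 15% for Sox9-GOF tumours. Lmx1b, with 17, 11 and 10 reads over the libraries labelled Sox9-LOF, the Sox9-GOF tumours and the controls of HGG, did not pass the filter. Without the filter its log2 change over HGG controls was 0.76 (SE 0.67, limma adjusted p = 0.643) in the libraries labelled Sox9-LOF and -0.36 (SE 0.76, limma adjusted p = 0.825) in Sox9-GOF tumours. The 95% confidence intervals were wide. That of Cdkn2a ran from -2.05 to 1.89 for the libraries labelled Sox9-LOF. Rela was 1.76-fold lower in the libraries labelled Sox9-LOF than in HGG controls (log2 -0.82, SE 0.28, limma adjusted p = 0.226), without overlap. It was 2.30-fold lower in HGG Sox9-GOF tumours than in the same controls (log2 -1.20, SE 0.21), without overlap, at limma adjusted p = 0.0594 and DESeq2 adjusted p = 3.94e-05.

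The Sox9-GOF effect was also compared between models, EPN minus HGG. The difference was log2 1.25 for Zfta (SE 0.46, limma adjusted p = 0.116), 1.48 for Cdkn2a (SE 0.95, adjusted p = 0.344), 0.63 for Ccnd1 (SE 0.62, adjusted p = 0.546), 0.39 for Lmx1b (SE 0.90, adjusted p = 0.826) and -0.32 for L1cam (SE 0.83, adjusted p = 0.846). By limma, edgeR and DESeq2 0 of the 5 passed, against 6.10% of 15088 genes by limma and 16.4% by DESeq2, and 1 (Zfta) had an unadjusted limma p under 0.05, against 27.2%. Without HGG control 3 both Zfta (adjusted p = 0.0478) and Cdkn2a (adjusted p = 0.0308) passed. Rela passed, at log2 1.40 (SE 0.36, limma adjusted p = 0.0463), but not on leaving out any single library other than HGG control 3 or EPN Sox9-GOF 1 (limma adjusted p up to 0.114, without EPN control 3).

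Apart from the 5 members themselves and predicted gene models, the genes whose log2 level followed each member most closely over the 15 libraries were picked by Pearson r. Among the members, Cdkn2a was closer to Ccnd1 (r = 0.934) than any gene named here, and Ccnd1 was as close to Cdkn2a as Gtf2h3 was. For Zfta they were Cul7 (r = 0.996), a ubiquitin ligase scaffold, Ephb2 (0.985) and Cercam (0.985). For Lmx1b they were Inhbb (0.975), an activin subunit, Cdon (0.972), a Hedgehog co-receptor, and Aplnr (0.967), the apelin receptor. For L1cam they were the neuronal genes Adam11 (0.968), Sptbn4 (0.961) and Caskin1 (0.960), for Ccnd1 Aco1 (0.896), Prmt1 (0.889) and Erh (0.883), and for Cdkn2a Gtf2h3 (0.934), Cdk2 (0.900) and Msto1 (0.900). For Zfta, Lmx1b and L1cam the EPN and HGG libraries form separate ranges, and these values span both. With group means removed the closest genes were Ehmt2 for Zfta (r = 0.965), Zfp128 for Lmx1b (0.893), Adam23 for L1cam (0.918), Aco1 for Ccnd1 (0.947) and Itgb1 for Cdkn2a (0.956), each over 15 libraries that share depth and scaling. The Lmx1b value rests in part on the 9 HGG libraries, which held 38 Lmx1b reads together, so counting noise may weigh on it.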

How the data were processed

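RNA was extracted from frozen tumour tissue and made into stranded poly(A) libraries, per the labels' protocols. The submitters' processing notes name build mm10, STAR 2.5.0a and DESeq2 1.30.1, without roles. Neither a counting tool nor a strand setting is named there. For each Sox9 comparison the authors deposited 1 table, 3 in all, each with 6 libraries and 24421 genes, whose values are a signal per gene, namely normalized counts. These are read counts divided by a factor per library, as the values show: 100% are whole multiples of what 1 read is worth, within 0.001 read. The HGG control reads were the same in both HGG tables for 24421 genes, and no 2 libraries were identical.

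Groups came from the library titles. Genes were tested with limma 3.58.1 (R 4.3.3, trended variance) on log2(normalized count + 1) for genes with a mean of at least 10, two-sided, with Benjamini-Hochberg adjustment over all genes tested and a threshold of 0.05. On this scale the change of low genes is understated. Sox9 comparisons used the deposited scale. Comparisons across models used the recovered reads, scaled jointly over 15 libraries by median of ratios, because the tables were normalized separately, so EPN and HGG levels rest on that shared scaling. edgeR 4.0.16 and DESeq2 1.42.0 were run on the recovered reads as alternatives, beside another pseudocount, no filter, TMM scaling, a spread shared by all libraries, a replicate block and leaving out each library. Leaving out the libraries with choroid plexus transcripts together was added after the data were seen. The limma step was tested on simulated counts with known changes.

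Same-numbered libraries were checked for pairing by the correlation of their deviations from group means. It exceeded 0.1 for all 3 pairs only between HGG Sox9-GOF and HGG control (0.178, 0.443 and 0.224). Libraries of unlike number were not compared, so this does not establish a pairing, and the labels state none. The main fits are therefore unpaired, and the replicate block is given as an alternative. Members, gene lists and tests were chosen with earlier results of these data known. Of each list, up to 4 genes were named by smallest adjusted p among those passing without overlap, or else 2 by smallest p, and some of these are left out for length. Coordinates are from GENCODE for GRCm38, the build of mm10, and promoters from RefSeq.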

Additional observations from a re-analysis of the deposited data

Results flagged for a closer look

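The change that came with Sox9 gain differed between EPN and HGG, by the test of the difference itself, for 9 of 87 genes tested in the 7 lists around the members, the members and Sox9 (10.3%), against 6.10% of 15088 genes tested in all. Values are EPN minus HGG on the log2 scale, from limma, unless a model is named. Within a model none of the 9 passed limma for Sox9-GOF over controls. Their limma adjusted p ran from 0.133 to 0.755 in EPN and from 0.059 to 0.989 in HGG. Sox9 itself differed by -1.39 (SE 0.26, limma adjusted p = 0.0215), with log2 1.04 in EPN Sox9-GOF over EPN controls and 2.40 in HGG Sox9-GOF over HGG controls. Rela differed by 1.40 (adjusted p = 0.0463) and the NF-kB inhibitor gene Nfkbib by 1.43 (adjusted p = 0.0234). The retinoblastoma gene Rb1 differed by -1.36 (adjusted p = 0.0279) and the p53 target Bbc3 by 1.52 (adjusted p = 0.0261). In the L1 family and its partners, Cntn1 differed by -3.24 (adjusted p = 0.0185), Nrcam by -2.34 (adjusted p = 0.0264), Chl1 by -2.58 (adjusted p = 0.0283) and Ank3 by -1.78 (adjusted p = 0.0433). The 7 neuron markers had a median difference of -2.29, and their part in these values was not tested. By Xist and Ddx3y, sex was not balanced between these groups, and its part was likewise not tested. None of the 5 members met this test with all libraries. Of the 9 genes, 0 met the test without EPN control 3 (limma adjusted p from 0.0515 for Cntn1), only Cntn1 did without EPN control 2 or without HGG Sox9-GOF 3, 2 did without HGG Sox9-GOF 2 and 4 without HGG Sox9-GOF 1 or EPN control 1, while all 9 did without HGG control 3. With the choroid plexus libraries left out 0 of the 9 met it, and over all genes 13 did, against 920 with all libraries. Signs stayed the same in these fits.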

How the results depend on the processing

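Over 33 fold changes of single members and 517 alternative fits, 478 kept their direction and side of the threshold, 7 lost the call, 11 gained it and 21 changed sign, all for values that had not passed. Zfta, Lmx1b and L1cam passed between EPN and HGG tumours under every alternative run, though Lmx1b passes the filter through EPN alone, so that its call says little of stability. Counts of genes called depended on the tool. DESeq2 called 1339 genes for HGG labelled Sox9-LOF, 2260 for HGG Sox9-GOF, 842 for EPN Sox9-GOF, 4393 between controls and 2468 for the Sox9-GOF effect between models, where limma with all libraries called 0, 0, 0, 2317 and 920 and edgeR 0, 0, 0, 2261 and 728. A spread shared by all libraries called 1108, 2253, 129, 4217 and 1515 for the same comparisons. At an unadjusted limma p under 0.05, 2564, 3420 and 2196 genes passed in the 3 Sox9 comparisons. Members called changed to 2 for EPN Sox9-GOF by DESeq2. The cause of these differences was not tested.

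Leaving out single libraries gave 0 to 6 genes called for HGG labelled Sox9-LOF, 0 to 5 for EPN Sox9-GOF, 368 to 3633 between controls and 44 to 2135 for the Sox9-GOF effect between models. The 6 came without HGG control 2 and the 5 without EPN control 1. Between controls the lowest count was without EPN control 2 and the highest without HGG control 1, and for the effect between models the lowest was without EPN control 3 and the highest without HGG control 3. Members called ranged from 1 to 3 between controls and 0 to 2 for the effect between models. Log2 changes that took either sign were those of Ccnd1 (-0.14 to 0.65) and Cdkn2a (-0.98 to 0.60) for HGG labelled Sox9-LOF, Ccnd1 for HGG Sox9-GOF (-0.71 to 0.15), Lmx1b for EPN Sox9-GOF (-0.17 to 0.42), Ccnd1 (-0.10 to 0.71) and Cdkn2a (-0.49 to 1.10) between controls, and L1cam (-0.94 to 0.47) and Lmx1b (-0.019 to 0.98) for the effect between models. Cdkn2a between controls was -0.080 by edgeR and -0.076 by DESeq2. With the choroid plexus libraries left out, an alternative chosen after seeing the data, the effect between models held 13 genes, Cdkn2a was 1.05 for HGG labelled Sox9-LOF and 0.41 for HGG Sox9-GOF, Ccnd1 0.47 for HGG Sox9-GOF and -0.067 for the effect between models, and L1cam 0.33 for that effect. These fits have fewer samples.

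The replicate block gave 1142 genes between controls, 844 for the effect between models, 5472 between Sox9-GOF tumours and 8183 between all tumours, and 0 in the Sox9 comparisons. Under it Cdkn2a passed between EPN and HGG tumours and no other call of a member changed. Depth limits Lmx1b in HGG, where its values rest on 38 reads.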
